A study of Mus musculus with 16 samples.

Results

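The genes described are 9 markers of liver sinusoidal endothelium, Stab1, Stab2, Clec4g, Lyve1, Kdr, Pecam1, Fcgr2b, Oit3 and Gpr182, chosen by name as a reference for the non-hepatocyte content of the tissue. All 9 were among the 25006 genes of the count table and among the 13180 that passed the filter on low counts, so none was lost to the filter. The libraries are poly(A) RNA from whole liver of C57BL/6 mice, an inbred laboratory strain, taken 4 h after 1 oral gavage of a slurry. The 4 groups of 4 libraries are fast food slurry with antibiotic drinking water (fast food antibiotic), chow slurry with antibiotic water (chow antibiotic), fast food slurry with control water (fast food control) and chow slurry with control water (chow control). Genotype, sex and age are not stated, nor are the antibiotics, their doses or how long they were given. Water was assigned by randomisation according to the labels. Nothing states that replicates came from separate animals, so a p-value here may reflect technical spread only.

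Sinusoidal endothelial cells line the liver capillaries with a fenestrated wall that has little basement membrane, which lets plasma reach the hepatocytes. They are known for scavenging: stabilins, lectins and an Fc receptor on their surface take up waste macromolecules, glycans and immune complexes from portal blood. They are kept differentiated by vascular endothelial growth factor (VEGF) signals through Kdr, and they send Wnt and R-spondin signals to hepatocytes around the central vein.

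By role, Stab1 and Stab2 are the stabilin scavenger receptors, Lyve1 is a hyaluronan receptor shared with lymphatic endothelium, Clec4g is a C-type lectin and Fcgr2b is the inhibitory IgG Fc receptor, which B cells and macrophages also carry. Kdr is VEGF receptor 2 and Gpr182 is a receptor that binds chemokines. Pecam1 (CD31) is an adhesion molecule of endothelium in general and of platelets and leukocytes, and Oit3 is a secreted protein enriched in these cells. In the GENCODE annotation of GRCm38 all 9 are protein-coding genes on the minus strand. Stab1 lies at chr14:31139013-31168641, Stab2 at chr10:86841198-87008025, Clec4g at chr8:3707064-3720651 and Lyve1 at chr7:110850607-110863239. Kdr lies at chr5:75932827-75978458, Pecam1 at chr11:106654217-106750628, Fcgr2b at chr1:170958617-170976547, Oit3 at chr10:59422958-59441778 and Gpr182 at chr10:127747276-127751732.

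The RefSeq promoter table (GRCm38.p6) had an entry for 5 of the 9. The 250 bases before the RefSeq start are shown for the stabilins, both called in 1 meal comparison, for Kdr, called in 1 water comparison, and for Clec4g, called in no comparison of all 16 libraries. The windows are chr14:31168642-31168891 for Stab1, chr10:87007943-87008192 for Stab2, chr8:3720652-3720901 for Clec4g and chr5:75978456-75978705 for Kdr, each read on the minus strand, 5′ to 3′. Capitals mark AGGAAG or its reverse complement CTTCCT, 1 form of the site bound by ETS factors, which act widely in endothelium.
Stab1: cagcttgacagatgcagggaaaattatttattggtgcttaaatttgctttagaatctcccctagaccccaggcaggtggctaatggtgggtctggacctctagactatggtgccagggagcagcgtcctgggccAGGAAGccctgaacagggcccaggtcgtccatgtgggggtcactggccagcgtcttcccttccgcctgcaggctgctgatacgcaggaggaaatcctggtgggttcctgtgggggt
Stab2: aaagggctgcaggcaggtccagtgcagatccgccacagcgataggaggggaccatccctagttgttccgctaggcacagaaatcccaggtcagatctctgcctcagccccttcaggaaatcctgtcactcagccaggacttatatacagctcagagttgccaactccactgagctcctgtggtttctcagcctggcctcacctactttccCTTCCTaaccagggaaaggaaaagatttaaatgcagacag
Clec4g: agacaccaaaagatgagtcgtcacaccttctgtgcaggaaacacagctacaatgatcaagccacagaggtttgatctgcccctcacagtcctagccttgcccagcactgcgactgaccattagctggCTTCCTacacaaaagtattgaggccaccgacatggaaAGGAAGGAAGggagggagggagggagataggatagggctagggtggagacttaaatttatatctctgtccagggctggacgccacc
Kdr: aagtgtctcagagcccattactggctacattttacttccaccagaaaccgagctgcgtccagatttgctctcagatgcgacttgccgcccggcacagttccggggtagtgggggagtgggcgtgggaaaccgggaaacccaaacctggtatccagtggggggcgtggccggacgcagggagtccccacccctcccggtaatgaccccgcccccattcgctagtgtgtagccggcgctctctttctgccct

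This ETS hexamer was found in 3 of the 5 windows, once each for Stab1 and Stab2 and at 3 positions for Clec4g. In the Clec4g window AGGAAG occurs at a pair of positions that overlap. The hexamer was not in the Kdr and Fcgr2b windows, and the GATA hexamer AGATAA or its reverse complement TTATCT was in 0 of 5. Other forms of either site were not searched for. Across 32851 promoter windows of the same length, 29.5% held the ETS hexamer and 9.99% the GATA hexamer. These are matches of letters in a short window and not measured binding.

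Levels are in CPM, the counts of a gene divided by those of its library and put on 1 common scale, with trimmed-mean (TMM) factors that adjust for makeup. The sum of the 9 markers was 423 to 574 CPM in the 16 libraries. The lowest count behind any member in any library was 78, for Gpr182. Per kilobase of exon, Clec4g had the highest mean level, 18.3 ± 4.09 CPM per kb (SD, n = 16), followed by Stab2 with 14.3 ± 2.00, Oit3 with 13.7 ± 1.51, Lyve1 with 11.3 ± 7.24 and Kdr with 10.2 ± 2.16 CPM per kb. Stab1 followed with 7.15 ± 1.66, Fcgr2b with 6.09 ± 0.928, Pecam1 with 5.11 ± 0.962 and Gpr182 with 4.28 ± 0.974 CPM per kb. Each gene overlapped its neighbour in this order within 1 SD of each mean. Oit3 varied least over the 16 libraries, with a coefficient of variation of 11.05%, and Lyve1 most, with 64.2% and a 6.54-fold ratio of its highest to its lowest library.

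Several facts of the libraries touch these results. Total counts ran from 8954378 to 18954655. Reads resembling ribosomal RNA fall on 4 features (Lars2, Mir6236, Gm20594 and Mir6240), whose combined share, called the rRNA-like share, was 0.12% to 0.587% of counts in 9 libraries (low share) and 2.45% to 8.42% in 7 (high share). The high-share libraries were fast food antibiotic replicates 1, 2 and 4, chow antibiotic replicates 2 and 4 and chow control replicates 1 and 2, so no fast food control library was among them. Chow antibiotic livers also held more counts in 10 hepatocyte markers (17.1% to 20.6% of the total, against 12.1% to 16.1% in fast food antibiotic livers and 12.5% to 15.2% in chow control livers), and their TMM factors were the lowest of the 4 groups (0.781 to 0.950). Hepatocyte and sinusoidal shares of 1 library are not independent, since both are parts of the same total.

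Fast food was first compared with chow in mice on antibiotic water. Stab1 and Stab2 were higher after fast food, and no member was called lower. The 2 members called were set against 13.7% of all 13180 genes called in this comparison (edgeR, adjusted p under 0.05), or 7.78% called higher. In bulk tissue, fewer cells of a type and less RNA per cell cannot be told apart.

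Stab1 was at 117, 80.6, 79.3 and 93.3 CPM in fast food antibiotic livers and at 54.0, 49.6, 68.7 and 45.9 CPM in chow antibiotic livers. Every fast food library was above every chow library. The log2 fold change was 0.76 ± 0.14 (SE; edgeR adjusted p = 0.004001), a 1.69-fold difference with a 95% interval of 0.47 to 1.05 on the log2 scale. Stab2 was at 129, 146, 156 and 145 CPM in fast food antibiotic livers and at 108, 89.6, 125 and 113 CPM in chow antibiotic livers. These groups did not overlap either, although fast food replicate 1 and chow replicate 3 were close. Its log2 fold change was 0.40 ± 0.11 (adjusted p = 0.02367), a 1.32-fold difference.

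The 2 groups had no overlap for these 2 of 9 members, against 14.5% of all genes. Stab1 kept its call in all 16 fits that left out 1 library. Stab2 lost it without fast food antibiotic replicate 3 (log2 fold change 0.36, adjusted p = 0.07244) or 4 (0.40, adjusted p = 0.06106), and without chow antibiotic replicate 1 (0.37, adjusted p = 0.05582) or 2 (0.31, adjusted p = 0.07199). Within the high-share libraries, 3 fast food against 2 chow, neither passed (Stab1 1.00, adjusted p = 0.1672; Stab2 0.45, adjusted p = 0.2305). That fit called 1 of 12339 genes in all, so a lost call there says little of these genes. In the low-share libraries fast food antibiotic has only 1 library.

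Kdr was the next nearest to the threshold, with a log2 fold change of 0.37 ± 0.13 (adjusted p = 0.0615). It passed without fast food antibiotic replicate 2 (0.42, adjusted p = 0.03013) or chow antibiotic replicate 3 (0.48, adjusted p = 0.02501). It also passed when the rRNA-like share was a covariate (0.41, adjusted p = 0.04499) or a 2-level split (0.41, adjusted p = 0.0297), and without scaling factors (0.59, adjusted p = 0.01775). Its levels were 74.9, 76.5, 106 and 90.7 CPM in fast food antibiotic livers and 63.4, 56.4, 82.7 and 67.03 CPM in chow antibiotic livers, which overlap through chow replicate 3. The other 6 members had log2 fold changes of -0.28 (Pecam1) to 0.29 (Gpr182) with adjusted p-values of 0.238 to 0.8623. Of these, Clec4g was called lower when fast food antibiotic replicate 2, chow antibiotic replicate 4 and chow control replicate 2, which were highest in acute phase transcripts, were left out (-0.57, adjusted p = 0.02849). The 95% intervals of the 6 were narrowest for Oit3 (-0.18 to 0.34) and widest for Lyve1 (-0.84 to 1.120), so a change in Lyve1 of about the size seen for Stab1 would not have been detectable. Over the 9 members the median log2 fold change was 0.14, against 0.03 over all genes tested.

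**Figure D1:**
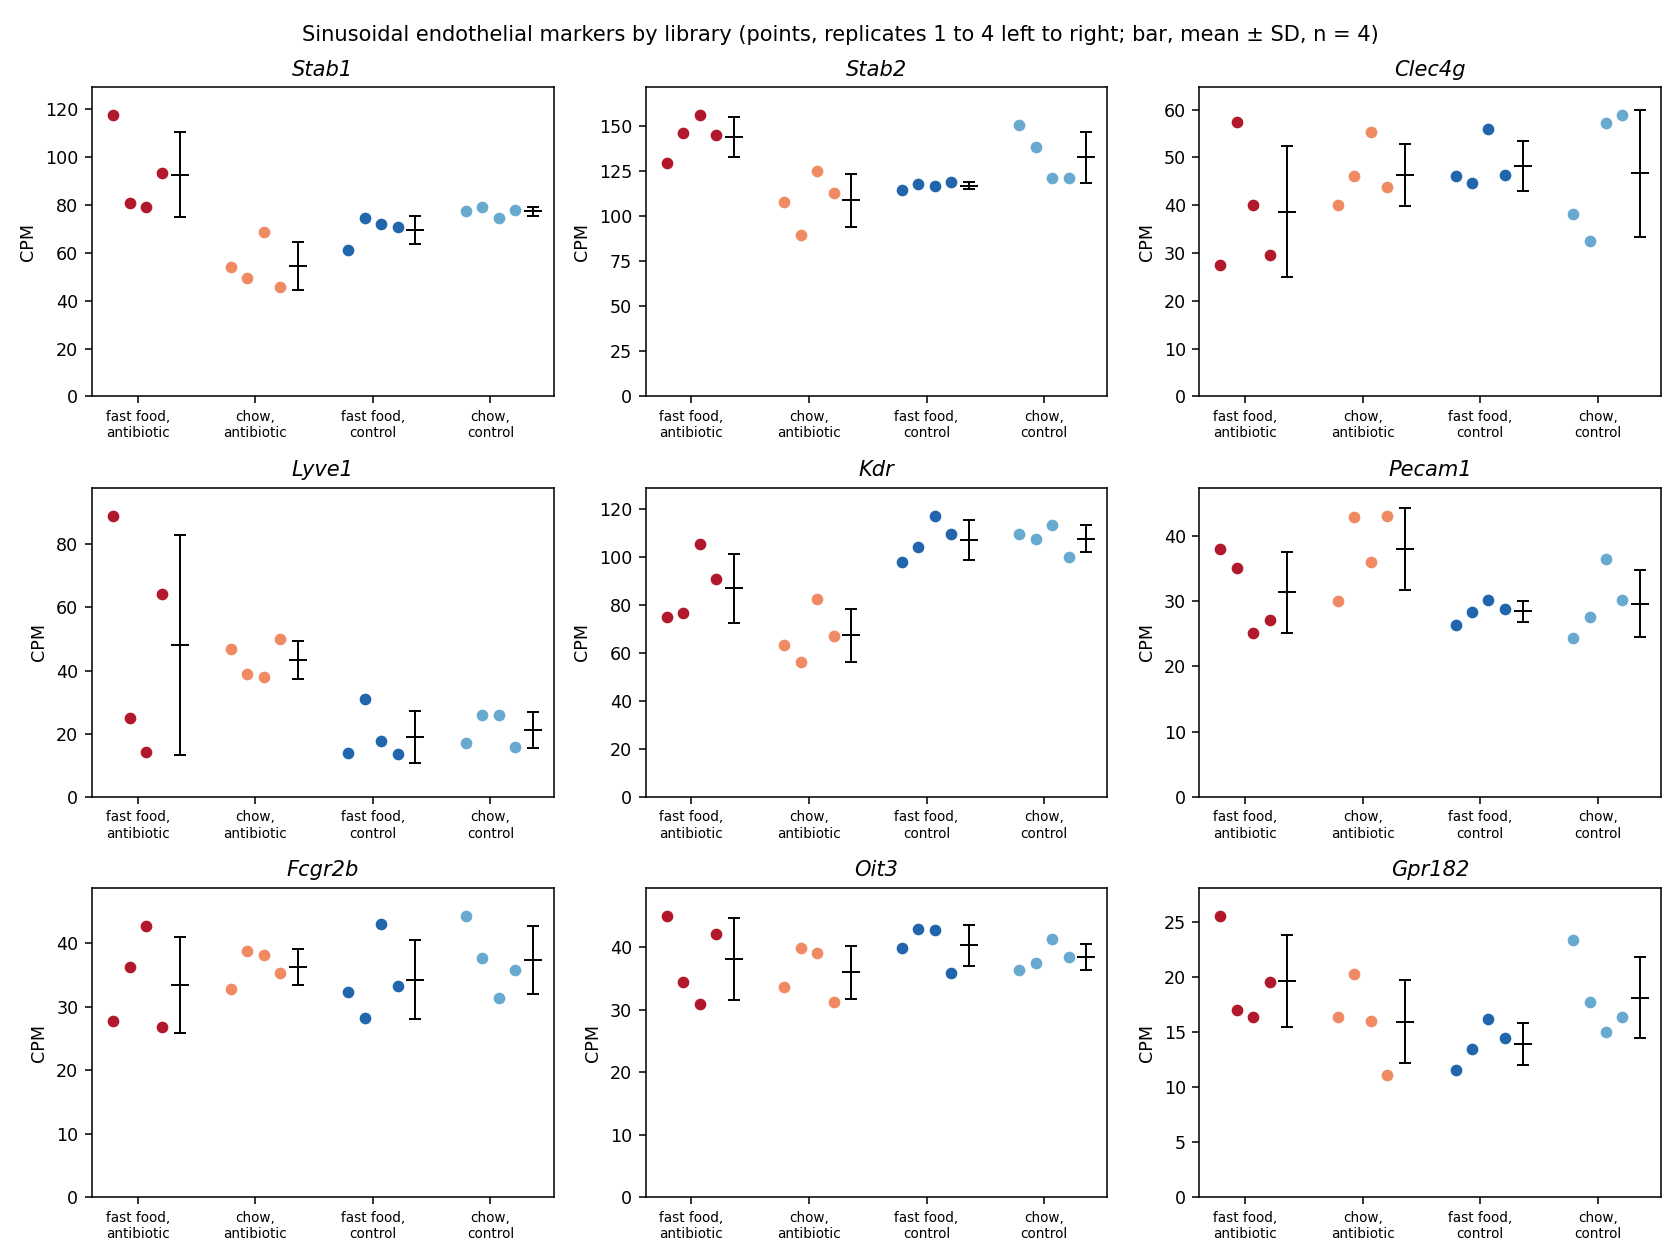
Level of each of the 9 markers in CPM (vertical axes, from 0) in every library, by meal and drinking water. Points are replicates 1 to 4, and bars give the mean ± SD (n = 4). Stab1 in fast food antibiotic livers lay at 79.3 to 117 CPM, above all chow antibiotic livers (45.9 to 68.7 CPM), and Lyve1 in fast food antibiotic livers spread from 14.3 to 89.1 CPM.

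Fast food was next compared with chow in mice on control water, where 0 of 9 members were called by edgeR or by DESeq2 and 0 had an unadjusted p under 0.05. The background here was 0.577% of genes called by edgeR (11.5% at an unadjusted p under 0.05), and DESeq2 called 305 of 13180 genes. Stab1 was at 61.2, 74.4, 72.2 and 70.8 CPM in fast food control livers and at 77.5, 79.3, 74.7 and 77.9 CPM in chow control livers. Stab2 was at 114, 118, 116 and 119 CPM in fast food control livers and at 150, 138, 121 and 121 CPM in chow control livers. For both stabilins all fast food control libraries were below all chow control libraries, and such separation was seen for 10.3% of all genes.

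The fitted log2 fold changes were -0.15 for Stab1 (95% interval -0.44 to 0.13, adjusted p = 0.7463) and -0.18 for Stab2 (-0.41 to 0.05, adjusted p = 0.5722). Both intervals exclude the size that each gene had on antibiotic water. Gpr182 had the largest fitted difference, -0.37 (-0.77 to 0.02), and Kdr the smallest, -0.01 (-0.27 to 0.26). The fold change was negative for 7 of 9 members, against 53.9% of all genes.

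The meal effect on the stabilins differed between the waters by the test of the difference itself. The interaction, the meal effect on antibiotic water minus that on control water, was 0.91 ± 0.19 on the log2 scale for Stab1 (edgeR adjusted p = 0.0181) and 0.59 ± 0.15 for Stab2 (adjusted p = 0.04199). These 2 of 9 members stand against 3.94% of all genes called, or 2.36% called in the positive direction. The Stab1 interaction kept its call in all 16 fits without 1 library (0.78 to 1.04). The Stab2 call was kept in 4 of those 16 fits, with log2 values of 0.49 to 0.66 and adjusted p-values of up to 0.09741 (without chow control replicate 1). The 12 fits that lost it left out each fast food control library, fast food antibiotic replicates 3 and 4, chow antibiotic replicates 1, 2 and 4, and chow control replicates 1, 2 and 4. A fit that adjusted for the rRNA-like share lost it too (adjusted p = 0.09967).

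The other 7 members had interactions of -0.30 (Clec4g) to 0.66 (Gpr182), with adjusted p-values of 0.1591 to 0.9876. Fcgr2b and Oit3 were both at 0.01, with 95% intervals of -0.46 to 0.48 and -0.35 to 0.37.

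**Figure D2:**
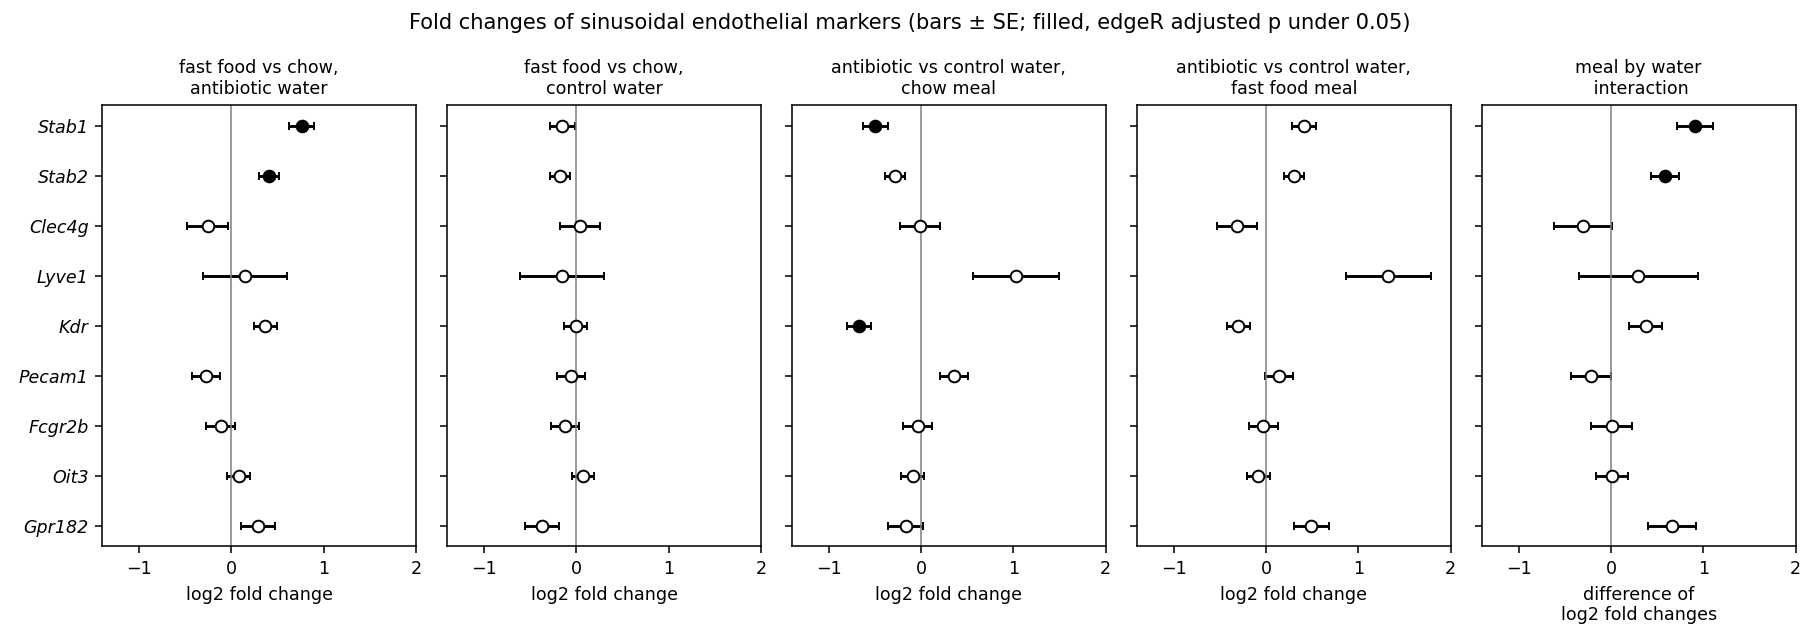
Fitted log2 fold change of each marker (horizontal axes, points ± SE) in the 4 comparisons, with the interaction on the right as the difference of the meal effects. Filled points passed edgeR's adjusted p under 0.05. Stab1 was filled in 3 of the 5 panels, at 0.76, -0.50 and 0.91, and the panel of fast food against chow on control water has no filled point.

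Antibiotic water was then compared with control water after the chow meal. Stab1 and Kdr were lower on antibiotic water, and no member was called higher. The 2 members called lower compare with 13.2% of all genes called lower and 23.8% called in either direction, so a share of this size was near the background.

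Kdr was at 63.4, 56.4, 82.7 and 67.03 CPM in chow antibiotic livers and at 109, 108, 113 and 100 CPM in chow control livers. No antibiotic library reached the control range. The log2 fold change was -0.68 ± 0.13 (adjusted p = 0.001407), or 0.626 times the control level, and the call was kept in all 16 fits without 1 library (-0.79 to -0.59). Within the low-share libraries it was -0.56 (adjusted p = 0.01426), and within the high-share libraries, where 3 of 12339 genes were called in all, -0.80 (adjusted p = 0.1053).

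Stab1 fell by 0.50 ± 0.14 on the log2 scale (adjusted p = 0.01335), with 45.9 to 68.7 CPM in chow antibiotic livers, against 74.7 to 79.3 CPM in chow control livers. It lost the call without chow antibiotic replicate 4 (-0.40, adjusted p = 0.05035), within the low-share libraries (-0.32, adjusted p = 0.1077) and within the high-share libraries (-0.70, adjusted p = 0.1476), whose fit called few genes of any kind. The low-share fit called 3319 of 13203 genes. Stab2 had a log2 fold change of -0.28 (adjusted p = 0.06686), which passed without chow antibiotic replicate 3 (-0.36, adjusted p = 0.03504). Without scaling factors the median log2 fold change of all genes was -0.25, and Stab1 and Kdr stayed negative, at -0.74 and -0.92.

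Lyve1 had the opposite sign. It was at 46.8, 38.8, 37.9 and 50.0 CPM in chow antibiotic livers and at 17.0, 26.0, 26.0 and 15.7 CPM in chow control livers, so the groups did not overlap. Its log2 fold change of 1.03 ± 0.46 did not pass (adjusted p = 0.1239, 95% interval 0.03 to 2.02) in the fit to all 4 groups, which share 1 estimate of spread. A fit to these 2 groups alone gave 1.04 ± 0.19 (adjusted p = 0.003272), and DESeq2 gave 1.05 (adjusted p = 0.04097). Pecam1 had a log2 fold change of 0.35 (adjusted p = 0.105), and passed without chow antibiotic replicate 1 (0.48, adjusted p = 0.04227). In all, 3 of 9 members had no overlap between these groups, Stab1, Lyve1 and Kdr, against 24.8% of all genes.

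Clec4g, Fcgr2b, Oit3 and Gpr182 had log2 fold changes of -0.17 to -0.01 in this comparison (adjusted p of 0.5422 to 0.9704). Inside the chow control group Clec4g was at 38.2 and 32.6 CPM in the high-share replicates 1 and 2 and at 57.3 and 58.8 CPM in the low-share replicates 3 and 4. In fast food antibiotic livers Clec4g was at 27.5, 57.4 and 29.5 CPM in high-share replicates 1, 2 and 4. Low-share replicate 3 was at 40.1 CPM. In chow antibiotic livers high-share replicates 2 and 4 were at 46.2 and 43.7 CPM. Low-share replicates 1 and 3 of that group were at 40.0 and 55.3 CPM. No fast food control library had a high share. The part of the rRNA-like share in the Clec4g values was not tested. The median over the 9 members was -0.09, against -0.01 over all genes.

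Antibiotic water was compared with control water after the fast food meal as well, and 0 of 9 members passed in edgeR, against a background of 5.99%. DESeq2 called 2, Stab1 (0.40, adjusted p = 0.04961) and Lyve1 (1.32, adjusted p = 0.01954), and over all genes it called 1547 of 13180. At an unadjusted p under 0.05 there were 5 members, Stab1, Stab2, Lyve1, Kdr and Gpr182, against 26% of all genes. The rRNA-like share was low in the fast food control group throughout and high in 3 of 4 fast food antibiotic libraries, so no within-share value exists for this comparison.

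Lyve1 was at 89.1, 24.9, 14.3 and 64.1 CPM in fast food antibiotic livers and at 13.96, 31.0, 17.6 and 13.6 CPM in fast food control livers. Antibiotic replicates 1 and 4 stood above all control libraries, while replicates 2 and 3 lay within their range. The log2 fold change was 1.33 ± 0.46 (adjusted p = 0.09639), 1.64 without antibiotic replicate 3 (adjusted p = 0.02275), 0.84 without antibiotic replicate 1, and also 0.84 in a fit adjusted for the rRNA-like share (adjusted p = 0.614), which called 0 of 13180 genes.

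Stab1, with 79.3 to 117 CPM in fast food antibiotic livers against 61.2 to 74.4 CPM in fast food control livers, had a log2 fold change of 0.41 ± 0.13 (adjusted p = 0.07454). Stab2 had 0.30 ± 0.11 (adjusted p = 0.09639), Gpr182 0.49 ± 0.19 (adjusted p = 0.1127) and Kdr -0.30 ± 0.13 (adjusted p = 0.1448). For Stab1, Stab2 and Gpr182 all antibiotic libraries lay above all control libraries, 3 of 9 members against 18.4% of all genes. When the 3 libraries highest in acute phase transcripts were left out (fast food antibiotic replicate 2, chow antibiotic replicate 4 and chow control replicate 2), Stab1 was called higher (0.45, adjusted p = 0.04928) and Clec4g lower (-0.59, adjusted p = 0.04276).

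A test for any difference among the 4 groups called 3 of 9 members, Stab1 (adjusted p = 0.004089), Kdr (0.002775) and Stab2 (0.03), against 32.6% of all genes. Lyve1 had an adjusted p of 0.06372, and the other 5 had 0.1291 to 0.7898. This share of members was near that background.

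**Figure D3:**
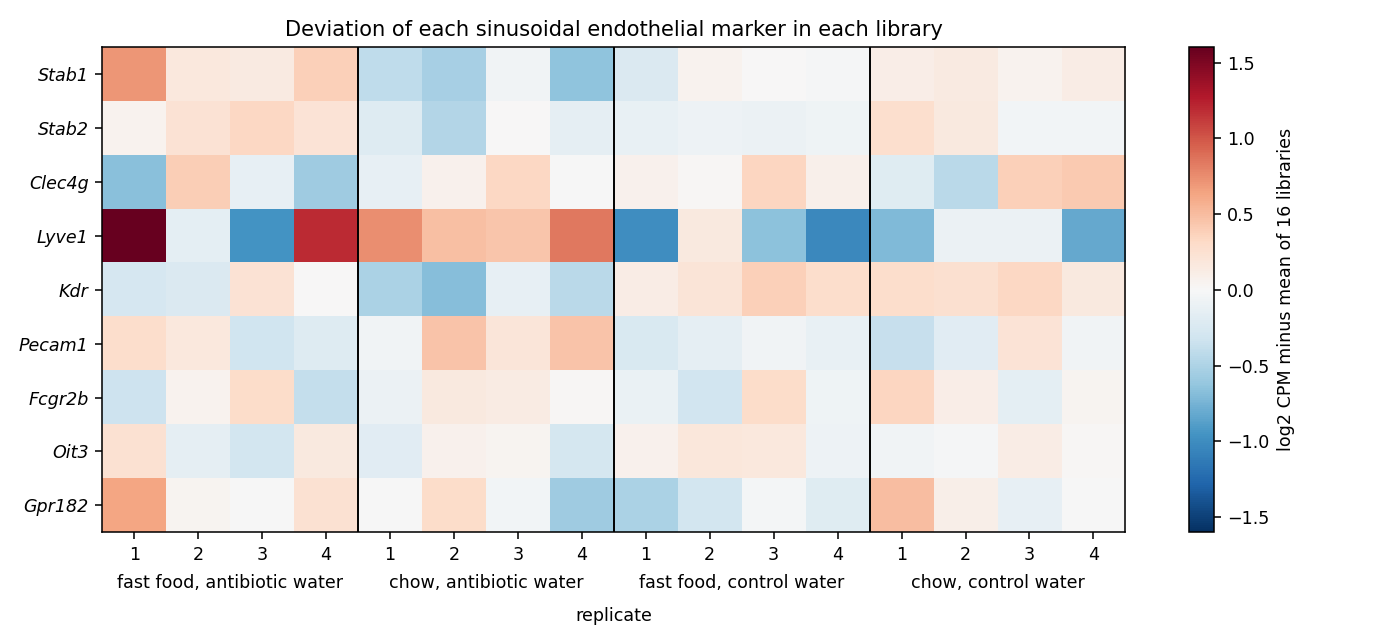
Deviation of each marker (rows) in each library (columns, replicates 1 to 4 within each group) as log2 CPM minus the gene's mean over 16 libraries (colour scale, log2 units). Lyve1 and Stab1 were both high in fast food antibiotic replicate 1, while Clec4g was lowest there, at 27.5 CPM.

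In each of the 4 comparisons the 9 members had fold changes of both signs. The summed level was 533 ± 31.0 CPM in fast food antibiotic livers, 446 ± 35.6 CPM in chow antibiotic livers, 478 ± 28.2 CPM in fast food control livers and 509 ± 11.9 CPM in chow control livers (SD, n = 4 each). The highest sum was 574 CPM in fast food antibiotic replicate 1 and the lowest 423 CPM in chow antibiotic replicate 2. Sums of fast food antibiotic livers (508 to 574 CPM) did not overlap those of chow antibiotic livers (423 to 498 CPM). The ranges were 443 to 511 CPM in fast food control livers and 494 to 521 CPM in chow control livers. No test was made of the sum.

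A score was the mean over the genes of the log2 deviation from each gene's mean, with no scaling by spread. Lyve1, with a coefficient of variation of 64.2%, could therefore move it more than the other members could. No score without Lyve1 was made. The score was 0.09 ± 0.14 in fast food antibiotic livers, -0.02 ± 0.09 in chow antibiotic livers, -0.08 ± 0.11 in fast food control livers and 0.02 ± 0.04 in chow control livers. The ranges of all 4 groups overlapped, and no test was made of this score. Fast food antibiotic replicate 1 had the highest score, 0.26, being highest in its group for 5 markers and lowest for 3. Fast food control replicate 1 had the lowest score, -0.22.

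Markers of other liver cells were compared in the same way. The Kupffer cell list, 11 markers of resident macrophages, summed to 183 to 304 CPM in fast food antibiotic livers and 207 to 256 CPM in chow antibiotic livers, against 361 to 495 CPM in fast food control livers and 307 to 846 CPM in chow control livers. Divided by the sum of the sinusoidal markers, this gave 0.427 ± 0.0725 in fast food antibiotic livers and 0.528 ± 0.0509 in chow antibiotic livers, against 0.912 ± 0.115 in fast food control livers and 0.959 ± 0.464 in chow control livers. The highest antibiotic ratio was 0.602 and the lowest control ratio 0.609 (chow control replicate 2), so the 8 antibiotic libraries lay below the 8 control libraries by a small margin.

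After chow, 8 of 11 Kupffer markers were lower on antibiotic water, against 13.2% of all genes called lower, and 5 of 11 without chow control replicate 3. After fast food, 6 of 11 were lower, against 5.99% of all genes called. The count was 0 or 1 without any 1 of the 8 libraries compared other than fast food antibiotic replicate 1, and the calls over all genes also moved in those 7 fits, to between 78 and 933 where all libraries gave 790. Timd4 fell by 1.58 after chow (adjusted p = 0.000475) and by 1.18 after fast food (adjusted p = 0.01977, lost without fast food antibiotic replicate 4 or fast food control replicate 2 or 3, highest adjusted p = 0.05954). No Kupffer marker was called in either meal comparison. Fcgr2b, a member that macrophages also carry, had log2 fold changes of -0.04 after chow and -0.03 after fast food for antibiotic against control water, with 95% intervals of -0.37 to 0.29 and -0.36 to 0.30. The part of macrophages in the values of the other members was not tested.

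The hepatocyte list had 4 of 10 markers lower after fast food than after chow on antibiotic water, and 5 of 10 higher on antibiotic than on control water after chow, the opposite sign to Stab1 in both comparisons. Over all genes 13.7% were called in the meal comparison and 23.8% in the water comparison. The count of 4 became 7 when fast food antibiotic replicate 2 was left out, and 2 when either fast food antibiotic replicate 4 or chow antibiotic replicate 2 was. Its summed level averaged 136707 CPM in fast food antibiotic livers and 217886 CPM in chow antibiotic livers, with 129460 CPM in fast food control livers and 130904 CPM in chow control livers. The part of hepatocyte RNA content in the stabilin and Kdr values was not tested. Stellate cell markers summed to 407 to 699 CPM, and 2 of 11 were called in each of the same comparisons, near those shares, with Colec11, a secreted collectin, at 0.81 and -1.01.

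Lymphocyte markers summed to 0.438 to 3.61 CPM and cholangiocyte markers to 9.28 to 43.2 CPM, well under the sinusoidal sum in all libraries. After chow, 2 of 2 lymphocyte markers tested were lower on antibiotic water, against 13.2% of all genes called lower. They were Ms4a1 (-2.84, edgeR adjusted p = 0.001666) and Cd79b (-2.35, adjusted p = 0.01601). Of 5 erythroid markers 1 was called for the meal on antibiotic water, Alas2 (1.51, adjusted p = 0.01184). It was also called for the water after chow (-1.48, adjusted p = 0.005902). Over all genes 13.7% and 23.8% were called in these comparisons.

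**Figure D4:**
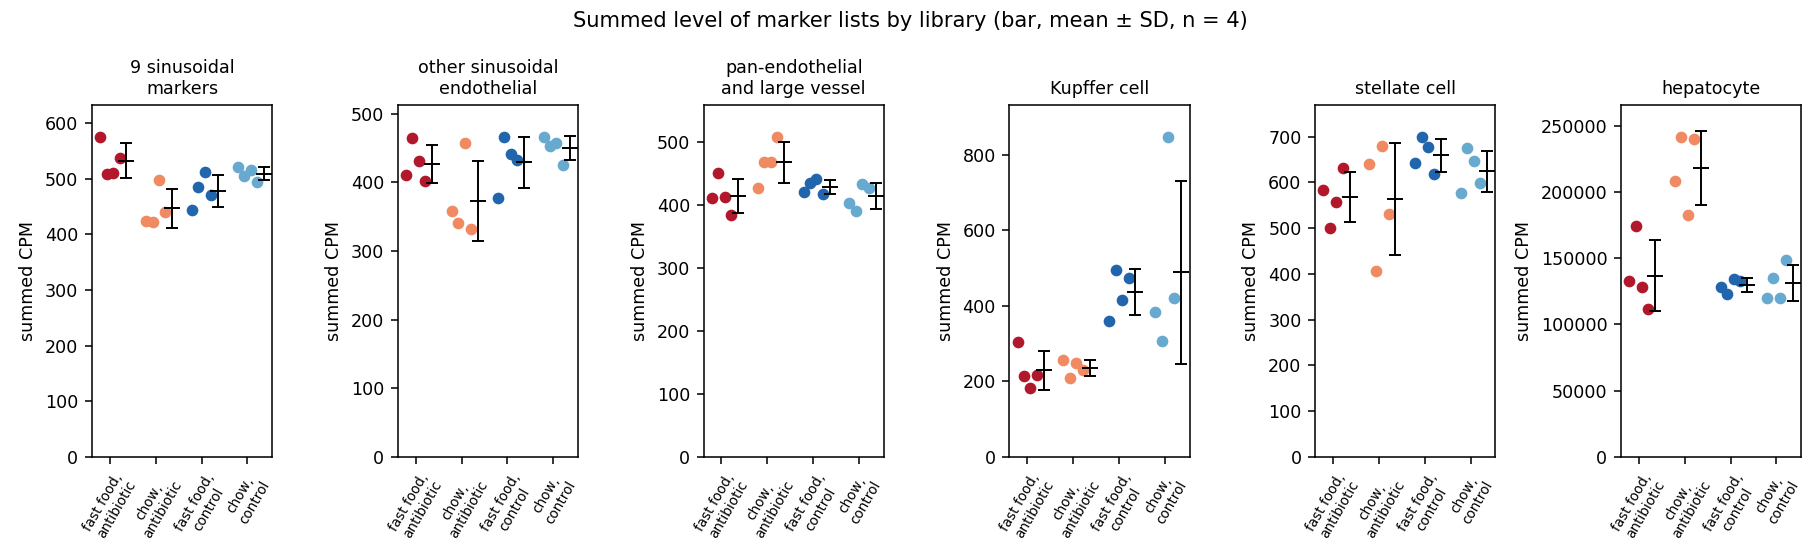
Summed CPM of 6 marker lists (vertical axes, from 0, each on its own scale) in every library, with bars for mean ± SD (n = 4). The sinusoidal sums stay between 423 and 574 CPM while the Kupffer sums run from 183 to 846 CPM.

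Other endothelial genes were mixed in direction, as the 9 markers were. Of 11 further sinusoidal genes, 3 were called after fast food against chow on antibiotic water, 0 on control water, 3 for antibiotic against control water after chow and 1 after fast food. The shares over all genes were 13.7%, 0.577%, 23.8% and 5.99% in the same order, so the 3 of 11 after chow were near the background. F8, coagulation factor VIII, was at 61.6 to 83.7 CPM in fast food antibiotic livers and 41.9 to 67.8 CPM in chow antibiotic livers, with 78.0 to 107 CPM in fast food control livers and 84.1 to 90.9 CPM in chow control livers. It was called higher after fast food on antibiotic water (0.49 ± 0.15, adjusted p = 0.0372) and lower on antibiotic water after chow (-0.82 ± 0.15, adjusted p = 0.001163), the same directions as Stab1.

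Mrc1, the mannose receptor, which macrophages also carry, fell by 0.46 on antibiotic water after chow (adjusted p = 0.007984). The pericentral Wnt ligand Wnt2 and the R-spondin Rspo3 had lower levels after fast food on antibiotic water (-0.88, adjusted p = 0.03857; -0.60, adjusted p = 0.03452), and Rspo3 was higher on antibiotic water after chow (0.51, adjusted p = 0.04239). Flt4, VEGF receptor 3, was higher on antibiotic water after fast food (0.67 ± 0.13, adjusted p = 0.01407). The F8 and Mrc1 calls after chow were kept in all 16 fits without 1 library, the Flt4 call in 14 (lost without fast food control replicate 1 or 3), and the other 4 in 7 to 10. The count of 3 for the meal was 0 without fast food antibiotic replicate 3 or 4 or chow antibiotic replicate 2. It was 1 without replicate 1 of either antibiotic group. The count of 3 for the water after chow was 5 without fast food antibiotic replicate 2. Wnt2 was at -0.59 without chow antibiotic replicate 3.

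Of 22 pan-endothelial and large-vessel genes tested, 3 were called for the meal on antibiotic water, Egfl7 higher (0.46, adjusted p = 0.03791) and Esam (-0.67, adjusted p = 0.03912) and Aqp1 (-0.51, adjusted p = 0.04605) lower, each kept in 4 to 10 of the 16 fits. That count was 0 without fast food antibiotic replicate 1, 3 or 4 or chow antibiotic replicate 2, and 1 without chow antibiotic replicate 4. After chow, 3 were higher and 2 lower on antibiotic water, and these 5 of 22 were near the 23.8% of all genes called. The 3 for the meal were near the 13.7% called there. Esam, a junction adhesion molecule, had 18.997 to 25.7 CPM in chow antibiotic livers, against 7.62 to 13.8 CPM in chow control livers (0.83 ± 0.20, adjusted p = 0.007722). Selp, P-selectin, had a log2 fold change of 2.87 that was 0.95 without chow antibiotic replicate 4, where it reached 30.8 CPM, and its call was lost without chow control replicate 3 (adjusted p = 0.05383). Efnb2, an arterial ephrin, was higher as well (1.04, adjusted p = 0.01763; 0.05838 without chow control replicate 3).

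Cldn5, a tight-junction claudin of continuous endothelium, was lower on antibiotic water after chow (-0.58, adjusted p = 0.04718) and after fast food (-1.09 ± 0.20, adjusted p = 0.009965), with 2.66 to 3.97 CPM in fast food antibiotic livers and 6.60 to 8.28 CPM in fast food control livers. Clec14a, an endothelial C-type lectin, was lower after chow (-0.69, adjusted p = 0.03394). The count of 5 was 1 without chow control replicate 3 and 3 without chow antibiotic replicate 1 or 4 or chow control replicate 1 or 4. Pan-endothelial sums were 384 to 450 CPM in fast food antibiotic livers and 427 to 507 CPM in chow antibiotic livers, with 417 to 440 CPM in fast food control livers and 389 to 433 CPM in chow control livers.

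Among VEGF and angiopoietin genes, of which 9 were tested, Flt1 (VEGF receptor 1, a decoy for the ligand of Kdr) was higher on antibiotic water after chow, where Kdr was lower. It had 40.7 to 52.7 CPM in chow antibiotic livers and 20.7 to 28.3 CPM in chow control livers (0.97 ± 0.17, adjusted p = 0.0007455, kept in all 16 fits). After fast food it was also higher on antibiotic water (0.67, adjusted p = 0.03134, kept in 11 fits), and it was lower after fast food than after chow on antibiotic water (-0.53, adjusted p = 0.04388, kept in 8). The ligand gene Vegfb was higher after fast food on antibiotic water (1.05 ± 0.28, adjusted p = 0.02481, kept in 11), at 1.51 to 3.48 CPM in fast food antibiotic livers and 0.876 to 1.70 CPM in chow antibiotic livers.

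Of 7 genes of shear stress and endothelial activation tested, 3 were higher on antibiotic water after chow and 0 were called in the other comparisons. Over all genes 23.8% were called after chow in either direction, and in the other 3 comparisons 0.577% to 13.7%. Thbd, thrombomodulin, had 33.1 to 72.3 CPM in chow antibiotic livers and 6.12 to 18.3 CPM in chow control livers (2.20 ± 0.61, adjusted p = 0.01941). Nos3, endothelial nitric oxide synthase, had a log2 fold change of 1.21 (adjusted p = 0.01902) and Klf4, a flow-responsive transcription factor that other cells also express, 1.48 (adjusted p = 0.01174). The count was 1 without chow control replicate 1 or 3. Neutrophil markers summed to 75.1 CPM in chow antibiotic replicate 4 and to 4.44, 4.47 and 3.04 CPM in replicates 1 to 3. Their sums were 1.57 to 9.34 CPM in chow control livers, and their part in the Thbd, Nos3 and Klf4 values was not tested.

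**Figure D5:**
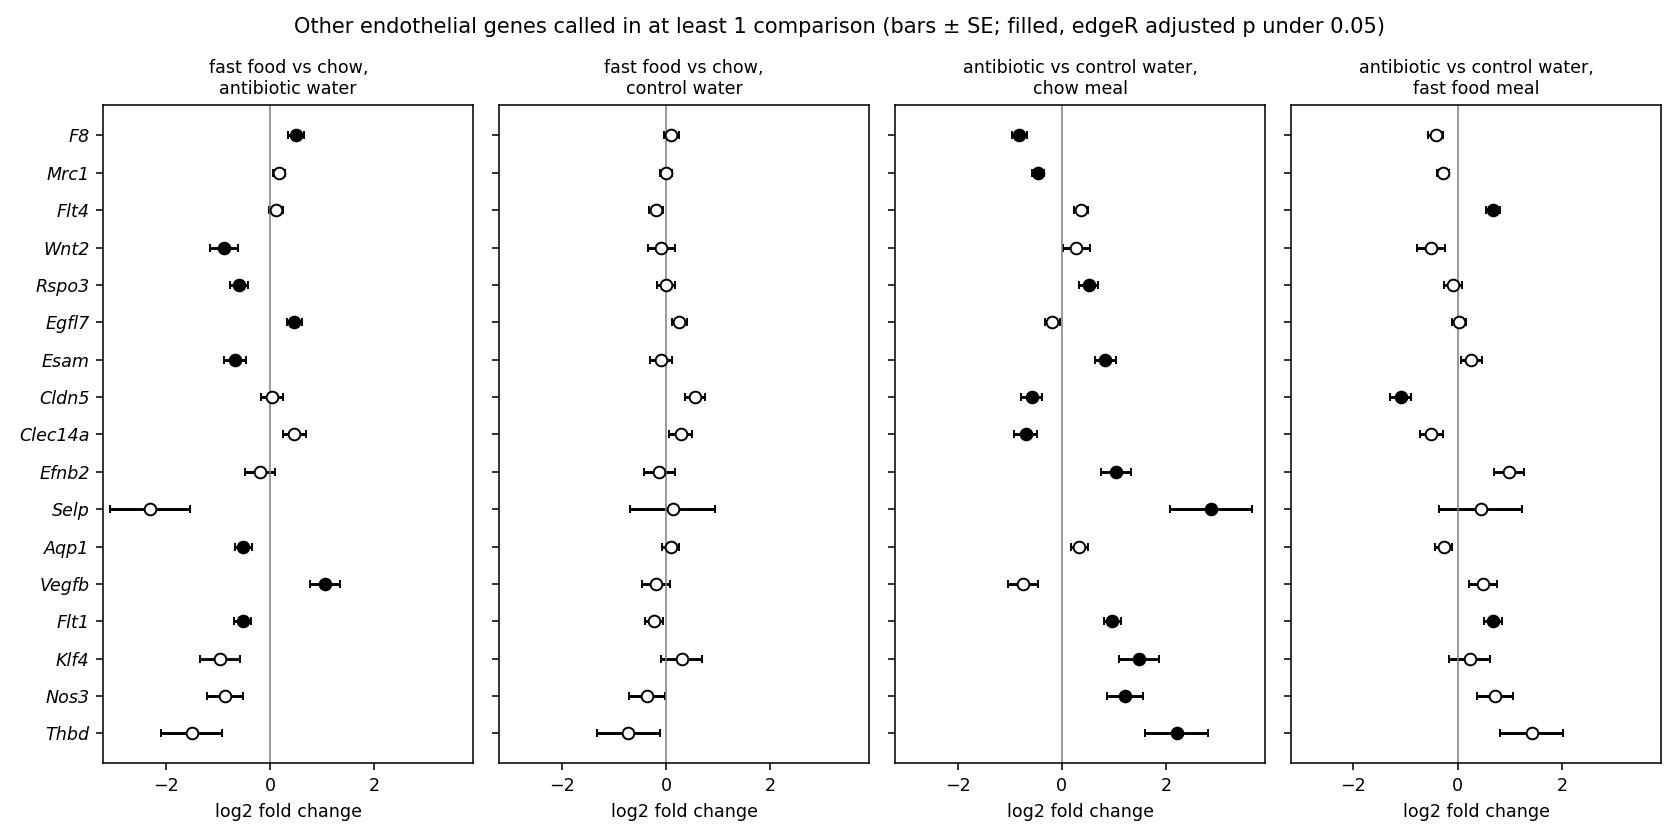
Fitted log2 fold change (horizontal axes, points ± SE) of the 17 genes of the other endothelial lists that were called in at least 1 of the 4 comparisons. Filled points passed edgeR's adjusted p under 0.05. No point is filled for fast food against chow on control water, and filled points fall on both sides of 0 in the comparisons of antibiotic with control water after chow and of meals on antibiotic water.

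The genes most like the sinusoidal score over the 16 libraries, by Pearson's r of log2 CPM, were Myo7a (0.837) and Vopp1 (0.832), and none of the 8 nearest was in a marker list. Within groups, after each group's mean was subtracted, Vopp1 was nearest (0.938), followed by Tada3 (0.809). Among the members themselves r with the score ran from -0.27 (Clec4g) to 0.69 (Gpr182) over the 16 libraries, with each gene also a part of the score. The libraries differ in depth and rRNA-like share, whose part in these correlations was not tested, and these are descriptions with no test.

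Some exons of members overlap those of genes on the opposite strand. With no strand setting stated for the counting, reads there are uncertain. Stab1 shares 112 exon bases with Nt5dc2, 1.09% of its exon length. Nt5dc2 had 1.66 to 10.6 CPM, against 45.9 to 117 CPM for Stab1. Its log2 fold changes were 0.82 for the meal on antibiotic water (edgeR adjusted p = 0.04773) and -1.12 on control water (adjusted p = 0.0438). For antibiotic against control water they were -1.97 after chow (adjusted p = 0.0001005) and -0.03 after fast food (adjusted p = 0.9593). Its interaction was 1.94 (adjusted p = 0.009242). Gpr182, at 11.1 to 25.6 CPM, shares 74 exon bases with Zbtb39, at 8.13 to 16.3 CPM. Zbtb39 was called only for antibiotic against control water after fast food (0.61, edgeR adjusted p = 0.03738). Stab2, Clec4g and Fcgr2b overlap annotated antisense genes by 141, 146 and 155 bases. The part of these overlaps in the members' values was not tested.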

How the data were processed

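The authors deposited a table of unnormalised counts for each Ensembl gene, made from single-end TruSeq mRNA libraries of whole liver, per the labels' protocols. GRCm38.p6, STAR and HTSeq are named in the submitters' processing notes with cutadapt, FastQC, edgeR and DESeq2, without versions. The sources used here state neither strand setting nor annotation release.

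The 16 libraries were grouped by title and had 8954378 to 18954655 counts. Genes were kept by filterByExpr (minimum count 10) and tested in edgeR 4.0.16 (R 4.3.3) with TMM scaling, 1 mean per group over all libraries and robust quasi-likelihood F tests, two-sided. Benjamini-Hochberg adjustment ran over 13180 genes, and a gene is called at an adjusted p under 0.05. SE was taken as the log2 fold change over the root of F, and intervals use the fit's degrees of freedom. A prior count of 2 was used for log2 CPM. The procedure was tested on simulated data.

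The members and marker lists were chosen with earlier results of these data known. All 9 members are named, with up to 3 genes of lowest p from each other list. Alternatives were DESeq2 1.42.0, other scaling and filters, a fit to 2 groups, a replicate block, the rRNA-like share (covariate, split or within-share fits) and leaving out libraries. The within-share fits, the fits without scaling factors and the repeats of list counts were chosen after seeing the data. The 3 libraries left out for high acute phase transcripts were also picked by levels in these data. Genes outside the 3 lowest p were named after their values were seen (Cldn5 and Clec14a after chow). No 2 libraries of a group differed by less than sampling noise.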

Additional observations from a re-analysis of the deposited data

Results flagged for a closer look

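Clec4g stood apart in 1 fast food control library. Replicate 3 was at 55.9 CPM and the nearest other replicate at 46.2 CPM, a gap of 0.853 of the group's range, above Dixon's critical value of 0.829 for 4 samples. It was 1 of 48 sets of 4 tested, and chance flags about 1 in 20.

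The effect of the meal differed between the drinking waters, by edgeR's interaction test, for Stab1 (0.91 on the log2 scale) and Stab2 (0.59) among the sinusoidal markers and for Apoa1 (-0.98) and Asgr1 (-1.16) among the hepatocyte markers. The Stab2 call was lost in 12 of the 16 fits that left out 1 library and the Apoa1 call in 5 (highest adjusted p = 0.05842, without fast food control replicate 3). The sinusoidal pair had the more positive meal effect on antibiotic water and the hepatocyte pair the more negative one.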

How the results depend on the processing

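Of 28 alternatives, none turned the direction of a called fold change, and 81 of 1020 values that passed in neither fit changed sign. The labels do not say whether a replicate number links libraries. Of 24 same-numbered pairs, 3 had deviations correlated above 0.1 (-0.222 to 0.359), which cannot decide whether the numbers pair libraries. With the replicate block the members called were 3 and 0 for the meal on antibiotic and control water, 2 and 0 for the water after chow and fast food, 1 for the interaction and 2 for any difference. Over all 13180 genes the block fit called 1547, 65, 2916, 738, 355 and 3742 in the same order. Kdr passed under the block for the meal on antibiotic water (0.37, adjusted p = 0.03631).

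For the meal on antibiotic water the count of members called was 1 to 3 over the fits without 1 library, 0 in a fit to the 2 groups (Stab1 0.75, adjusted p = 0.05083; Stab2 adjusted p = 0.1038) and 0 among the high-share libraries. Those fits called 229 of 12232 and 1 of 12339 genes in all, against 1800 of 13180. For the water after chow it was 1 to 3 over the fits without 1 library. It was 1 without the 3 acute phase libraries (Stab1 adjusted p = 0.05086), where 3947 of 13253 genes were called. It was 1 among the low-share libraries (3319 of 13203 genes called) and 0 among the high-share libraries (3 of 12339). The fit to all libraries called 3138 of 13180 genes. For the water after fast food the count of members was 0 to 1 over the fits without 1 library. It was 2 with DESeq2 (1547 of 13180 genes called) and 2 without the 3 acute phase libraries (1025 of 13253 genes called). The interaction count was 1 to 2 over the fits without 1 library, and 1 with RLE size factors, no filter on low counts, the replicate block, the rRNA-like share as a covariate or the split as a model term. Over all genes the calls of these alternatives ran from 143 (covariate) to 526 (RLE). For the meal on control water the count of members was 0 throughout.

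Without scaling factors, the median log2 fold change of all genes was 0.24 for the meal on antibiotic water, -0.25 for the water after chow and 0.26 for the interaction. The score differences were then 0.33 and -0.30, and the sums differed by 153 and -140 CPM, in the meal comparison on antibiotic water and the water comparison after chow. Without Stab2, the most abundant member, the sum differed by 51.0 CPM for the meal on antibiotic water. The cause of these shifts was not tested. Leaving out single libraries gave score differences of 0.05 to 0.17 for the meal on antibiotic water, -0.14 to -0.06 on control water, -0.06 to 0.003 for the water after chow and 0.11 to 0.23 after fast food. The sums then differed by 70.7 to 96.2, -42.2 to -19.7, -73.2 to -47.8 and 40.9 to 65.8 CPM in the same order.

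Genes of few counts, such as Vegfb, have more counting error than the 9 markers, whose lowest count in a library was 78.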
